A study of Mus musculus with 4 samples.

Results

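The genes described are 10 imprinted genes of fetal growth, H19, Dlk1, Meg3, Mest, Plagl1, Cdkn1c, Grb10, Peg3, Ndn and Peg10, taken as every gene probe of the arrays that carries or is annotated with one of these names. All 10 had at least 1 probe, and together they had 21 of the 41174 gene probes. Total liver RNA of C57BL/6J mice, an inbred laboratory strain, was hybridised to 4 two-colour Agilent arrays of 1 slide. The groups are fetal liver under food deprivation (FD), fetal liver of controls, maternal liver under FD and maternal liver of controls. The RNA was pooled from 5 to 10 biological replicates, and each group was taken as 1 pool. Array 1 of each tissue had FD in Cy5 and control in Cy3, and array 2 had the dyes swapped. Housing was with chow and tap water ad libitum, while the sources used here do not give the length of the deprivation, the ages, the gestational stage or the fetal sexes. Between 53.2% and 69.7% of the gene spots of an array and dye were brighter than background by the scanner's test (called well above background here), no spot was saturated, and the number of arrays limits the precision. Because each group was taken as a single pool, no difference below has a replicate check and no test was made. The labels number the pooled samples of a tissue 1 and 2, and do not settle whether both arrays of a tissue carry the same pools. They were treated so, and the spread between them is read as technical. Where nothing is said otherwise a pair of values gives array 1 and then array 2.

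Imprinted genes are transcribed mainly from a single parental allele, and the parental alleles are told apart by DNA methylation set in the germ line. In the mouse, Dlk1, Mest, Plagl1, Peg3, Ndn and Peg10 are transcribed from the paternal allele, and H19, Meg3, Cdkn1c and, in most tissues, Grb10 from the maternal allele. Many of them are abundant in fetal organs, including the liver, and are switched down after birth. Their products include brakes on cell division (Cdkn1c), on insulin and growth factor signalling (Grb10), a membrane protein of hepatoblasts (Dlk1) and long noncoding RNAs (H19 and Meg3).

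The 60-base probes of the noncoding members are printed first, to show which stretches of each RNA were read. Both H19 probes and all 5 Meg3 probes are given 5′ to 3′ with their position in mouse build mm7, as the files give it, in the order along the transcript. The Meg3 probes carry the older name Gtl2 in the files. H19 probe 1 and Meg3 probe 1 map to stretches longer than 60 bases, so they cross splice junctions.
H19 probe 1, chr7:139003393-139003540, minus strand: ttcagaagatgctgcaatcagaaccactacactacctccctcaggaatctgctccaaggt
H19 probe 2, chr7:139003144-139003203, minus strand: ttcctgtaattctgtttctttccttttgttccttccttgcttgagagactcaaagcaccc
Meg3 probe 1, chr12:107070994-107079479, plus strand: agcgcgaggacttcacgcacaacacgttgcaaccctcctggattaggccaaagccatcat
Meg3 probe 2, chr12:107080192-107080251, plus strand: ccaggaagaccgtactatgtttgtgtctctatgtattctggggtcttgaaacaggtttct
Meg3 probe 3, chr12:107082578-107082637, plus strand: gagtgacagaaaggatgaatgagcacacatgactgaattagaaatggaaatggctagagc
Meg3 probe 4, chr12:107083918-107083977, plus strand: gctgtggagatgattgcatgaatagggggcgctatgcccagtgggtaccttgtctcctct
Meg3 probe 5, chr12:107092697-107092756, plus strand: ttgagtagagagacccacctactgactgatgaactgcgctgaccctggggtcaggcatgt

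Of the 10 loci, 3 also hold microRNAs in the RefSeq annotation of GRCm38.p6: H19, a noncoding gene at chr7:142575530-142578146, Meg3, a noncoding gene at chr12:109540996-109571729, and Mest, a protein-coding gene at chr6:30733506-30748466. The mature sequences from RefSeq are shown because the arrays read their host RNAs and not the microRNAs, and 0 of the probes of the host genes share 15 bases with the hairpins. Capitals mark the seed, bases 2 to 8, and no seed is shared between these microRNAs.
mmu-miR-675-5p (in H19): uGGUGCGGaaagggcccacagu
mmu-miR-675-3p (in H19): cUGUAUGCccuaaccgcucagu
mmu-miR-770-5p (in Meg3): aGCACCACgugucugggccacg
mmu-miR-770-3p (in Meg3): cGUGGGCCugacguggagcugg
mmu-miR-1906 (in Meg3): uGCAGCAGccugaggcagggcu
mmu-miR-335-5p (in Mest): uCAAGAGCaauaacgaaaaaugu
mmu-miR-335-3p (in Mest): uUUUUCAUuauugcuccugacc
The other loci in GRCm38.p6, all protein-coding, are Dlk1 at chr12:109452485-109463336, Plagl1 at chr10:13090832-13131694, Cdkn1c at chr7:143458339-143461059 and Grb10 at chr11:11930499-12037428. Peg3 lies at chr7:6703892-6730462, Ndn at chr7:62348277-62349928 and Peg10 at chr6:4747306-4760517. Whether a probe lies in an exon, intron or UTR of these genes was not analysed here.

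Fetal control liver held far more RNA of most of these genes than maternal control liver. H19, a noncoding RNA of the Igf2 domain, was 262-fold higher, Grb10, an adaptor that restrains insulin receptor signalling, was 65.9-fold higher and Meg3 was 44.6-fold higher. Dlk1 was at least 144-fold higher at its brighter probe in the main processing, a bound because its maternal signal was not well above background. The rule for a call was a mean difference of 2-fold or more, with 1.5-fold or more and the same sign on both array pairs. By that rule 7 of the 8 members measured on both arrays were higher in fetal liver and 0 lower, while of all 17509 measured genes 10.5% were higher and 9.18% lower. The median log2 difference of the 8 members was 5.20, against -0.02 over all measured genes. Values are log2 channel intensities after loess and between-array (Aquantile) scaling, fetal minus maternal, for arrays of the same dye orientation, and the SD of such a difference between the array pairs was 0.221. In RNA of whole tissue, more cells that express a gene and more RNA per cell cannot be told apart.

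**Figure D1:**
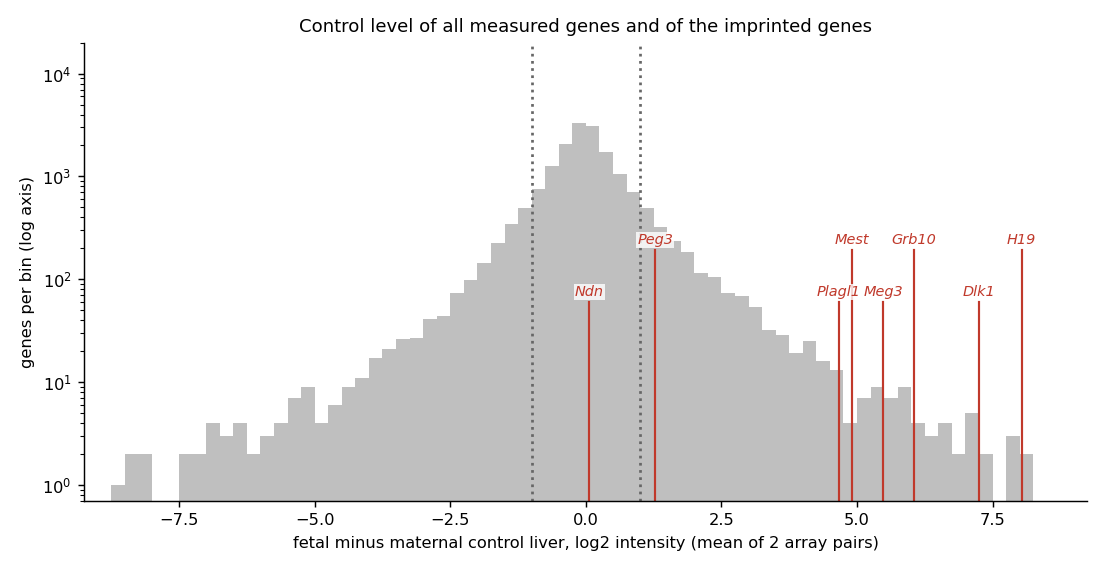
Histogram of the log2 difference between fetal control and maternal control liver over 17509 measured genes, on a log count axis, with the 8 members measured on both arrays drawn as red lines and the 2-fold limits dotted. H19 (8.03), Dlk1 (7.25), Grb10 (6.04), Meg3 (5.48), Mest (4.91) and Plagl1 (4.67) lie in the right tail, Peg3 (1.28) just past the dotted line and Ndn (0.06) at the centre.

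Of the noncoding RNAs, H19 at its brighter probe (probe 2) had log2 intensities of 15.42 and 14.995 in fetal FD liver and 15.21 and 15.16 in fetal control liver. In maternal liver it had 6.97 and 7.23 under FD and 7.04 and 7.26 in controls, well above background on both arrays. The tissues did not overlap, with log2 differences in controls of 8.17 and 7.89. H19 probe 1, well above background on 1 of the 2 maternal control arrays, gave 7.13 and 6.89. Meg3 at its brightest probe (probe 5) had 12.26 and 12.30 in fetal FD liver and 12.55 and 12.53 in fetal control liver, against 6.76 and 6.98 in maternal FD liver and 6.99 and 7.14 in maternal control liver. All 5 Meg3 probes were brighter in the fetus on both array pairs. Probe 5 gave 5.56 and 5.40 and probe 1 gave 4.06 and 4.03, both with maternal control signal well above background. The maternal signals of probes 2, 3 and 4 were not, so those probes give only bounds of at least 1.78-fold, 1.64-fold and 2.67-fold, and the sizes cannot be set against those of probes 1 and 5. Probes 2 and 3 did not pass the rule for a call.

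**Figure D2:**
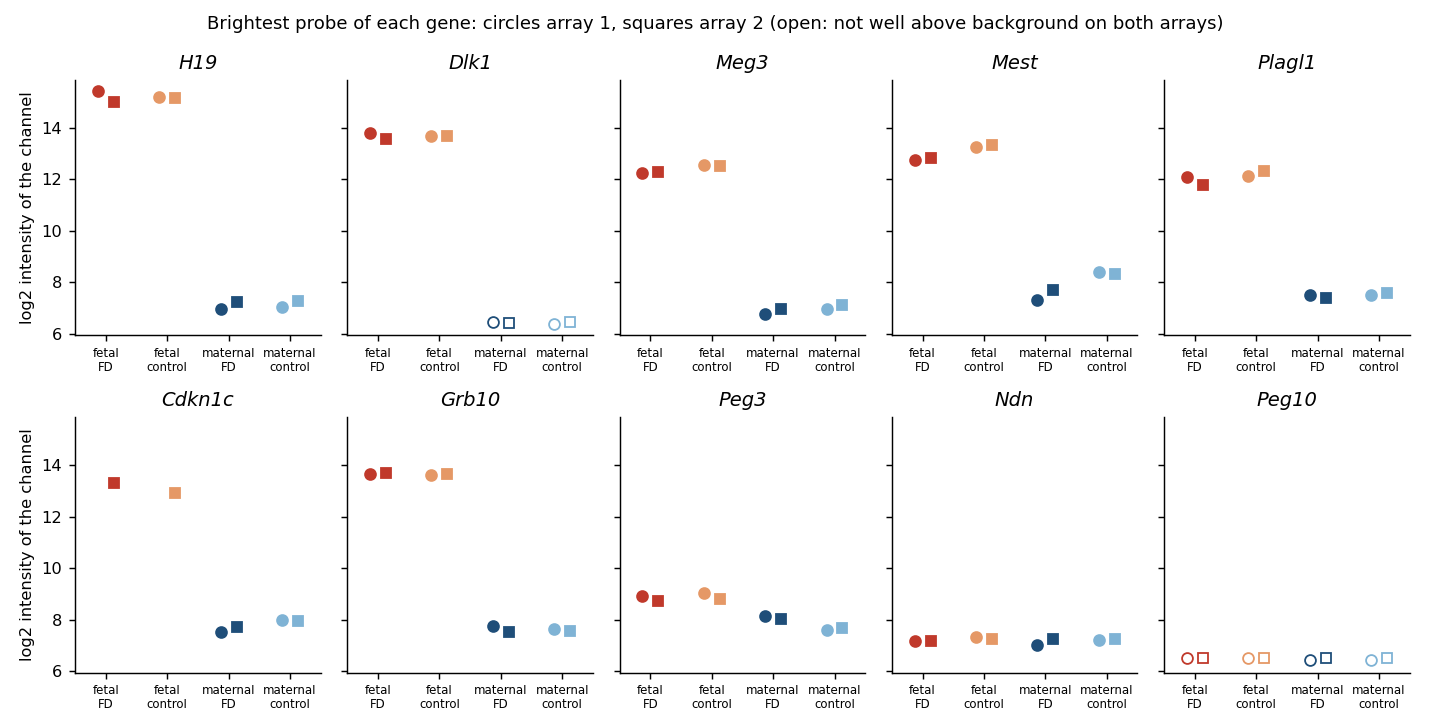
Log2 channel intensity of the brightest probe of each gene in the 4 pools, with circles for array 1, squares for array 2 and open symbols for pools not well above background on both arrays. Fetal symbols lie above all maternal ones for H19, Dlk1, Meg3, Mest, Plagl1, Cdkn1c, Grb10 and Peg3, the pools of Ndn overlap, and Peg10 is at background throughout.

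Dlk1, a Delta-like membrane protein of fetal hepatoblasts, had 13.79 and 13.56 in fetal FD liver and 13.70 and 13.69 in fetal control liver at its brighter probe. Its maternal values were 6.46 and 6.44 under FD and 6.403 and 6.48 in controls, not well above background on either array. The second Dlk1 probe, mapped 0.239 kb upstream, gave at least 34.3-fold. Mest, which encodes a hydrolase-like protein, had 12.77 and 12.81 in fetal FD liver and 13.27 and 13.32 in fetal control liver, against 7.30 and 7.72 in maternal FD liver and 8.43 and 8.34 in maternal control liver. Its fetal excess in controls was 30.2-fold. Among the maternal pools Mest was the member whose FD and control values lay farthest apart.

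The growth inhibitors had the same order of tissues. Grb10 had 13.66 and 13.70 in fetal FD liver and 13.64 and 13.66 in fetal control liver, against 7.77 and 7.54 in maternal FD liver and 7.63 and 7.58 in maternal control liver. The other Grb10 probes gave smaller differences, with means of 4.01 and 1.55. The probe with 1.55 was well above background on 1 of the 2 maternal control arrays, so its size cannot be set against the others. Plagl1, a zinc finger transcription factor that can halt the cell cycle, had 12.08 and 11.78 in fetal FD liver and 12.12 and 12.34 in fetal control liver, against 7.50 and 7.41 in maternal FD liver and 7.52 and 7.60 in maternal control liver. That is 25.4-fold higher in fetal control liver, and a dimmer Plagl1 probe gave at least 2.33-fold. Cdkn1c, the cyclin-dependent kinase inhibitor p57, had a single fetal reading, since its spot on array 1 carried the scanner's outlier flag. On array 2 it read 13.33 in fetal FD liver and 12.91 in fetal control liver, against 7.71 in maternal FD liver and 7.95 in maternal control liver. With flagged spots kept, its control difference was 27.3-fold, and the count of members called higher was then 8.

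The remaining members had small or no differences. Peg3, a zinc finger protein gene, had 8.92 and 8.74 in fetal FD liver and 9.05 and 8.80 in fetal control liver, against 8.16 and 8.03 in maternal FD liver and 7.60 and 7.70 in maternal control liver, a 2.42-fold fetal excess in controls. A further Peg3 probe gave 0.85 and 0.93, which is under 2-fold, and the last was not well above background on both arrays of any group. Ndn, which encodes necdin, had 7.19 and 7.19 in fetal FD liver and 7.03 and 7.26 in maternal FD liver. In controls it had 7.33 and 7.28 in fetal liver, against 7.20 and 7.27 in maternal liver, a log2 difference of 0.06 that is below the spread between array pairs. Peg10, a retrotransposon-derived gene with a known role in the placenta, was not well above background in any pool, with log2 intensities between 6.45 and 6.53. In the order of the differences, H19 and Dlk1 cannot be ranked because the value of Dlk1 is a bound, and Mest (4.91) and Plagl1 (4.67) differed by about the SD between array pairs.

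The size of these differences, though not their direction, changed with the processing and with the probe chosen. With the scanner's own processed signals the 8 members lay between 0.15 and 12.6 on the log2 scale, and with the mean over all measured probes of a gene Meg3 stood at 2.53, Plagl1 at 2.96 and Grb10 at 3.87. Dlk1 stood at 6.21 with that mean and at 7.07 with median centring, both below the main log2 bound of its brighter probe (7.16).

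Marker lists of several cell types differed between the same pools, and their part in the differences above was not tested. Of the cell cycle genes, 12 of 12 were higher in fetal control liver, with a mean log2 level of 12.0 and 12.1, against 8.56 and 8.57 in maternal control liver. Of the erythroid markers 10 of 10 were higher, with 11.6 and 11.6 against 7.94 and 7.95. Genes typical of fetal hepatocytes were higher in 8 of 12 cases and lower in 0, among them Afp at 6.88 on the log2 scale, and 4 of 10 adult hepatocyte genes were lower. Alb, the liver's main plasma protein gene, read 15.5 and 16.0 in fetal control liver and 15.2 and 16.0 in maternal control liver. Of the stellate cell and fibroblast markers 4 of 13 were higher, led by Col1a1 (3.11), and 1 lower, Rgs5 (-2.10), and of the leukocyte markers 3 of 9. The placental marker Prl3b1 read 6.88 and 6.81 in fetal control liver and 6.81 and 7.05 in maternal control liver, so the fetal pool was not the higher on both arrays. Of the muscle markers 3 of 6 were higher in the fetus, and Myh3, the embryonic myosin gene, was not well above background in the mother.

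The domain of Dlk1 and Meg3 was read along its length. Between the first Dlk1 probe and the Mirg probe (chr12:106981450-107261405, mm7), a stretch of 280 kb, lay 13 probes, of which 10 were well above background in fetal liver. By the same rule applied to probes, 7 of these 10 were higher in fetal control liver, most of them probes of Dlk1 and Meg3, and 0 lower. Only Meg3 probes 1 and 5 had maternal control signal well above background on both arrays. The other probes were measured through fetal signal alone, so for them the lack of lower calls carries no information. No share over all probes was computed, while of all 17509 measured genes 10.5% were higher and 9.18% lower. Besides Dlk1 and Meg3 the genes with a called probe were Rian and Mirg. Rian, a noncoding RNA that hosts small nucleolar RNAs, had a brightest probe at least 4.73-fold higher (2.19 and 2.38). Mirg, a host RNA of microRNAs, had 1.57 and 1.34. The Mirg probe was well above background on 1 of the 2 maternal control arrays. The other Rian probe was not well above background in maternal control liver, gave at least 1.33-fold and was not called. The stretch from H19 to Cdkn1c (chr7:139003144-139886187, mm7), 883 kb long, held 25 probes of 20 genes, of which 18 were measured, 6 called higher in fetal control liver and 0 lower. The 6 probes are those of H19, Igf2 and Tspan32, so more than 1 probe of a gene is counted. The 18 include the Cdkn1c probe, which could not be called without its array 1 value and was 27.3-fold higher with flagged spots kept.

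**Figure D3:**
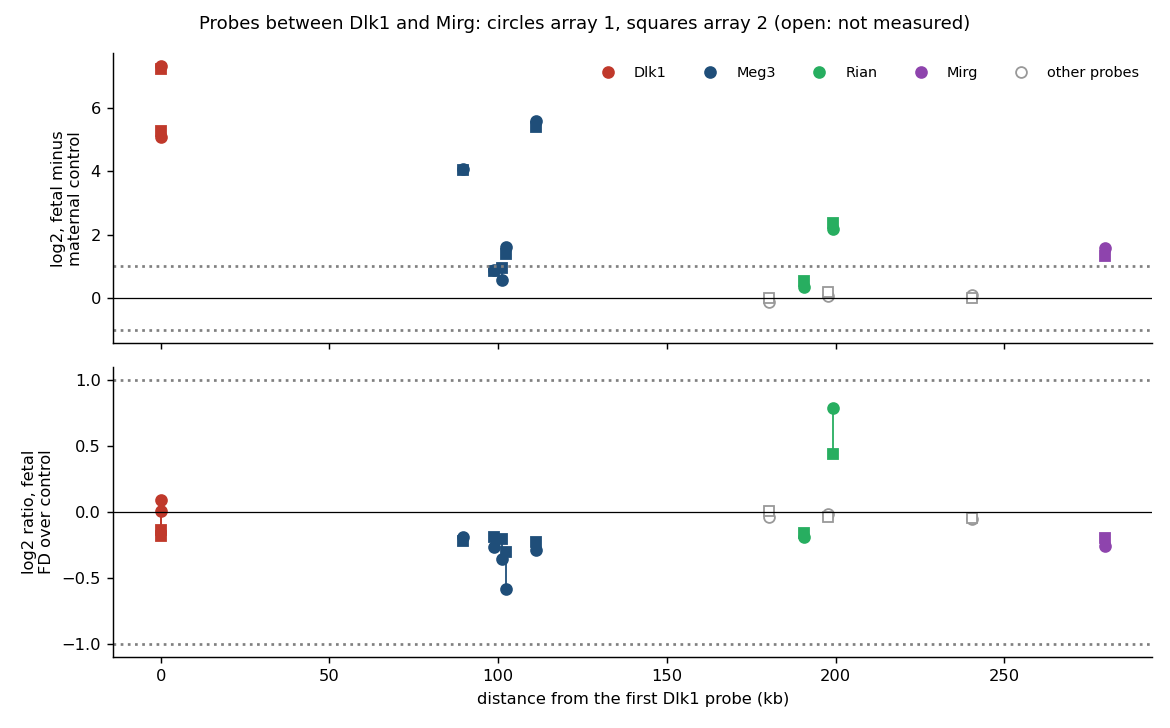
Probes between Dlk1 and Mirg by distance from the first Dlk1 probe in kb, with the log2 difference between fetal and maternal control liver above and the log2 ratio of FD over control in fetal liver below, circles for array 1, squares for array 2 and open symbols where the probe was not well above background. The upper panel shows 7 probes past 2-fold. In the lower panel no probe reaches 2-fold and 7 of 10 measured probes lie below 0 on both arrays, 5 of them Meg3 probes.

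The starts of the neighbouring genes Dlk1 and Meg3 are shown because both RNAs were high in the fetus and dim or near background in the mother. The sequences are the 250 bases before the transcript start that the RefSeq promoter table uses (GRCm38.p6), with CG dinucleotides, where DNA can be methylated, in capitals. A CG reads the same on both strands. The Dlk1 window lies within the Dlk1 locus as given above, and the Meg3 window ends just before the Meg3 locus.
Dlk1, chr12:109452573-109452822, plus strand: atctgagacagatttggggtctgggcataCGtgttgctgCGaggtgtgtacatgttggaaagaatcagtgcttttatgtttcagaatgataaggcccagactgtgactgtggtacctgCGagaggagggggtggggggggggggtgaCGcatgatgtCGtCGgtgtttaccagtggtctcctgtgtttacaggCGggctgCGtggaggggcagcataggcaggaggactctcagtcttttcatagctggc
Meg3, chr12:109540746-109540995, plus strand: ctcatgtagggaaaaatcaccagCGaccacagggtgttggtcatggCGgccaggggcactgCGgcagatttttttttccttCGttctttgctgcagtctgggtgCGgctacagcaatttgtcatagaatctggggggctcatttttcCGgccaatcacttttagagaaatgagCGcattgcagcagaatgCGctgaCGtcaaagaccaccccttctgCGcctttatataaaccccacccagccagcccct
The Dlk1 window holds 8 CG dinucleotides and the Meg3 window shown 10, and 43.0% and 37.8% of the 32851 RefSeq windows of that length hold as many or more. A second Meg3 start has a window (chr12:109545148-109545397) with 0 CG dinucleotides, which is not printed here. Windows were found for 7 of the 10 members, with 0 to 40 CG dinucleotides and a median of 8, against a median of 6 over all windows. The highest count was that of a Grb10 start, which 1.31% of all windows reach.

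Food deprivation took none of the measured members past the 2-fold rule in fetal liver. Cdkn1c, read on array 2 alone, and Peg10, at background, could not be called. Of the 8 members measured on both arrays 0 were called higher and 0 lower. Of all 17473 measured genes 0.75% were called in either direction, so 0 calls among 8 says little about these genes. The log2 ratios of FD over control of these 8 ran from -0.50 to 0.03 with a median of -0.10, against a median of 0.00 over all genes, and the SD of a ratio between the arrays was 0.15. Mest had the lowest ratio of the 8, with -0.50 on both arrays, a 1.42-fold lower level in fetal FD liver, and 1.36% of all measured genes lay at or below its mean. With median centring in place of loess Mest was at -0.25 and the median of the 8 at 0.04, and on array 2 alone Plagl1 (-0.56) lay lower than Mest. The Meg3 ratio was -0.29 and -0.23 at the brightest probe.

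Readings from different probes bear on how far these small ratios can be read. All 5 Meg3 probes lay below 0 on both arrays, with means from -0.44 to -0.21, each farther from 0 than the SD between arrays. That SD comes from the brightest probe of each gene and may not hold for the dimmer probes. The 5 probes read the same gene in the same pools on the same arrays, so they are not replicates. With median centring in place of loess 2 of the 5 did so, and the brightest had a mean of -0.02. All 3 Grb10 probes lay above 0 on both arrays, the first at 0.31 and 0.41, the second at 0.10 and 0.22 and the brightest at 0.02 and 0.04. With median centring 0 of the 3 did so, though their means were then 0.30 to 0.56, and in the scanner's processed signals the brightest had a mean of -0.01. For H19 the probes disagreed from array to array, with -0.09 and 0.32 at probe 1 and 0.21 and -0.16 at probe 2. Dlk1 had 0.09 and -0.13 at its brighter probe. These H19 and Dlk1 values had opposite signs on the arrays, so no direction can be given.

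Plagl1 had -0.03 on array 1 and -0.56 on array 2, a gap larger than the SD between arrays. Cdkn1c, read on array 2 alone, had 0.42, and with the flagged spot kept its ratios were 0.59 and 0.41. Peg3 had -0.13 and -0.06, and Ndn had -0.14 and -0.09, both closer to 0 than the SD between arrays. The second measured Peg3 probe had 0.07 and -0.16. Peg10 was at background and has no ratio.

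Along the domain of Dlk1 and Meg3, 7 of the 10 measured probes lay below 0 on both fetal arrays. The median log2 ratio of the 10 was -0.22, and none was called. Of these 7 probes 5 are the Meg3 probes given above, and the others are the dimmer Rian probe and the Mirg probe. The Dlk1 probes had opposite signs on the arrays, so the count is largely that of Meg3. No share over all probes was computed. With median centring 3 of the 10 lay below 0 on both arrays and the median was -0.05. The brightest Rian probe lay on the other side, at 0.79 and 0.44. The fetal pools also differed in a gene of the sex chromosomes: Xist, the RNA of the inactive X chromosome, had log2 ratios of -3.58 and -2.62. It was the 1 called of 5 sex-linked genes. The others on that list, Ddx3y, Eif2s3y, Uty and Kdm5d, are Y-linked, so the list median of 0.09 mixes genes of both sex chromosomes. The Y-linked Ddx3y, with 0.57 and 0.24, was the highest of the 5. In the same pools the median log2 ratio was -0.19 for the erythroid markers and -0.26 for the cell cycle genes, with 0 of 10 and 0 of 12 called. For the adult hepatocyte markers it was 0.71, with 3 of 11 called higher and 0 lower. Their part in the ratios of the imprinted genes was not tested.

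**Figure D4:**
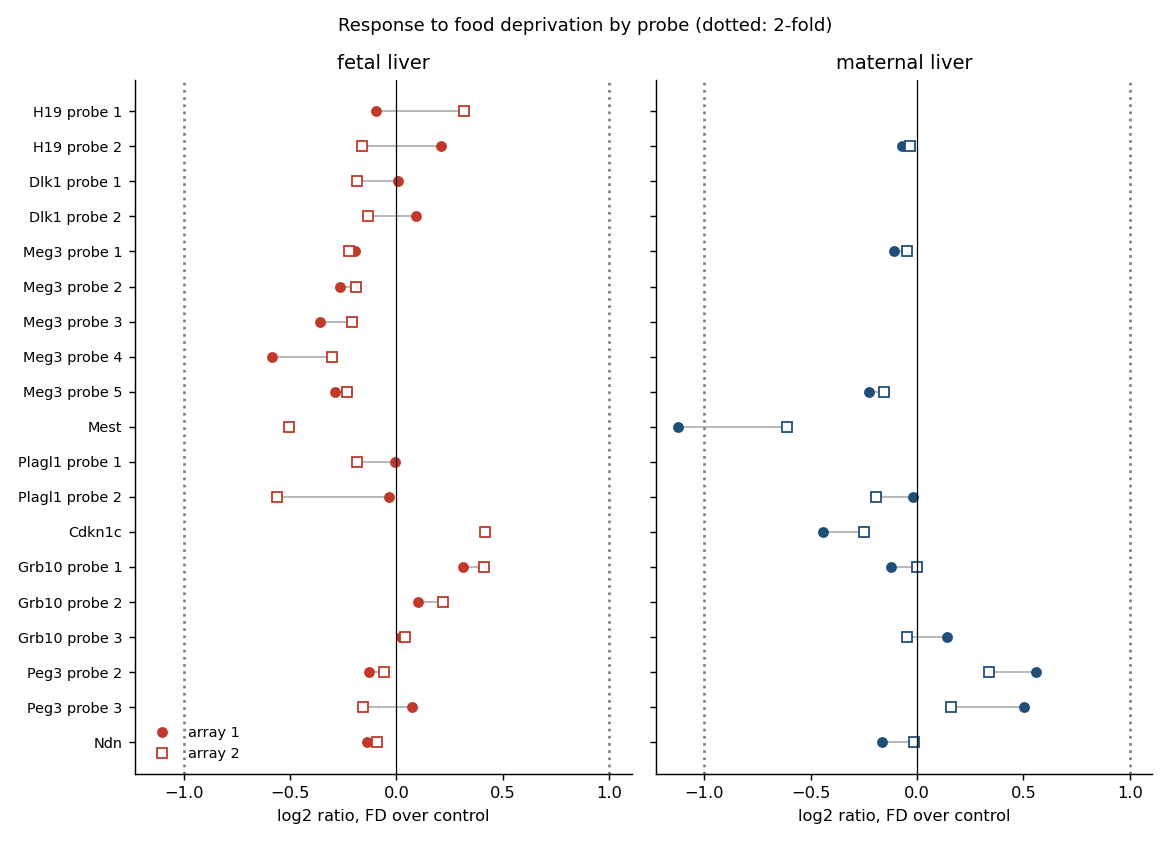
Log2 ratio of FD over control for every measured probe of the members in fetal liver (left) and maternal liver (right), with filled circles for array 1, open squares for array 2, and dotted lines at 2-fold. In fetal liver no probe reaches 2-fold and the 5 Meg3 probes lie below 0, and in maternal liver Mest passes the dotted line on array 1 alone.

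In maternal liver 0 of the 8 measured members were called, against 3.5% of all 15678 measured genes. Mest came closest, at -1.12 and -0.61, a 1.82-fold lower mean in FD liver, with 2.60% of genes at or below it. That value lies near the limit of the rule: Mest was called lower with the stained local background of a few spots repaired (-1.07), with a normexp offset of 10 (-1.15), and with the scanner's processed signals (-1.85). Without array 2 it was called too (-1.12). Peg3 lay on the other side with 0.56 and 0.34, and its further probe with 0.50 and 0.16, so both were above 0 on both arrays. In the scanner's processed signals Peg3 passed the rule as higher (1.00) and Meg3 as lower (-1.31), where the main values of Meg3 were -0.23 and -0.15.

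Cdkn1c had -0.44 and -0.25 in the mother. Plagl1 (-0.02 and -0.19), H19 (-0.07 and -0.03), Grb10 (0.14 and -0.05) and Ndn (-0.17 and -0.02) had mean ratios closer to 0 than the SD between the maternal arrays, 0.169. Dlk1 and Peg10 were not well above background in the mother. In the same pools 4 of 12 cell cycle genes fell, with a median over the 12 of -0.42, as did the fibrillar collagen gene Col3a1 (-1.42 and -1.72) and the macrophage marker Adgre1 (-1.16 and -1.10). Col3a1 was the 1 called of 13 stellate cell and fibroblast markers, whose median was -0.23 and highest value 0.63. Adgre1 was the 1 called of 8 leukocyte markers, whose median was -0.40 and highest value 0.22. Their part in the ratio of Mest was not tested.

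The response of the fetus was set against that of the mother for the 7 members measured in both. Of these 0 were called different, against 3.04% of 15144 genes, and the fetal minus maternal log2 differences ran from -0.54 for Peg3 to 0.36 for Mest. The difference of Peg3 was -0.69 and -0.40, and that of Mest was 0.62 and 0.11. For both genes the array pairs gave the same sign, for Mest with unequal sizes.

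Other imprinted genes were read from a list of 61, of which 55 had a probe. Of 42 measured in fetal liver and 37 in maternal liver, 0 were called in either response, against 0.75% and 3.5% of all measured genes. In the control level 8 of 43 were higher in the fetus and 5 lower, with a median log2 difference of 0.06. Of all measured genes 10.5% were higher and 9.18% lower. Igf2, the fetal growth factor gene next to H19, was 234-fold higher, with 14.83 and 15.03 in fetal control liver, against 7.15 and 6.98 in maternal control liver. At its brightest probe its log2 ratios of FD over control were 0.13 and -0.26 in fetal liver and -0.06 and 0.00 in maternal liver, with no direction shared by the arrays of a tissue. The second Igf2 probe had -0.21 and -0.07 in fetal liver. Phlda2, a growth-restraining gene of the placenta, was 8.73-fold higher, Sgce, which encodes a sarcoglycan, 5.77-fold, Rian at least 4.73-fold and Ppp1r9a, a neurabin gene, 3.28-fold. Those lower in the fetus were the transporter gene Slc22a18 (7.34-fold), the noncoding RNA Airn (3.01-fold), Ddc, which encodes an aromatic amino acid decarboxylase (2.74-fold), Blcap (2.17-fold) and the protease inhibitor gene Tfpi2 (2.09-fold).

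Of 17 measured partners and paralogs of the members, 0 were called in the fetal response and 1 in the maternal, against 0.75% and 3.5% of all measured genes. Cdkn1a, the p21 relative of Cdkn1c, rose 2.47-fold in maternal FD liver, with 10.52 and 10.23, against 9.03 and 9.11 in maternal control liver. In fetal liver its ratio was 0.71 and 0.48, which is under 2-fold. The genes with values most like those of H19 over 6 log2 values (the ratios of both tissues and the level difference, each on 2 array pairs) were, by Euclidean distance among 17168 genes, Cstdc6 (0.40), Igf2 (0.53), Slc4a1 (0.66), Eraf (0.82) and Dlk1 (1.13). The distances of Dlk1, Eraf and Cstdc6 rest in part on maternal signal not well above background. Cstdc6 belongs to the stefin cluster, whose near-identical copies a probe may not tell apart.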

How the data were processed

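Liver RNA pools were read on 4 two-colour arrays; the arrays of a tissue were taken as the same pools with dyes swapped and counted as 1 replicate, so no test was made. Per the file headers, the deposited scanner files hold linear intensity values of spot and local background in both dyes, and processed intensity values that Agilent Feature Extraction (9.5.1.1 in the headers, 9.5.3.1 in the submitters' processing notes) had background-subtracted and dye-normalised. The deposited series table holds a ratio of red over green with 2 columns stored as negative scores. It correlated at 0.9999 or more with the processed signals on the log scale, from which its direction was taken, while the meaning of the negative sign stays unknown.

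With limma 3.58.1 in R 4.3.3, intensities were corrected by normexp (offset 50) and normalised within arrays by loess. Control and flagged spots were left out (215 to 257 flagged gene spots per array), ratios were turned to FD over control, and log2 levels came after Aquantile scaling of the deposited intensities. The scripts were checked on constructed values with known differences. A probe was measured when either compared channel was well above background on both arrays, and the brightest measured probe stood for a gene. For a pool dim on both its arrays, a bound replaces the fold, computed against the larger of the dim signal itself and the array's lowest signal that passed the background test. Probes were named by accession, symbol or synonym in a RefSeq table of GRCm38.p6 (Gtl2 is Meg3 there), and probe positions are those of mm7 in the files.

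Named were all 10 members, other imprinted genes called in a response or among the 5 largest level differences per direction, partners called in a response, and the 5 nearest genes to H19 and Dlk1 (not given for Dlk1, whose maternal signal was not well above background). Members and lists were chosen with earlier results of these data known. Alternatives were another background repair, offset, filter, scaling, probe rule and single arrays.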

Additional observations from a re-analysis of the deposited data

Results flagged for a closer look

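Peg3 was singled out because at its brightest probe the ratio of FD over control lay below 0 on both fetal arrays and above 0 on both maternal arrays. The fetal minus maternal difference was -0.54 on the log2 scale, with -0.13 and -0.06 in the fetus and 0.56 and 0.34 in the mother. The difference was not tested, and the fetal values are closer to 0 than the SD between arrays (0.15). With median centring in place of loess the fetal mean was 0.10, so the opposite sign in the fetus is lost, while the difference was -0.40. With scanner processed signals the difference was -1.13 and was called. The second measured Peg3 probe had 0.07 and -0.16 in the fetus and 0.50 and 0.16 in the mother.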

How the results depend on the processing

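No member was called in the fetal response under any of the 11 alternatives run, and the count of members higher in fetal control liver was 7 under all 12 run but 2, outlier flags kept and without array 1, where it was 8 with Cdkn1c. No called value changed direction. In the maternal response 1 member (Mest) was called lower with the stained background repaired and with offset 10, and 2 lower and 1 higher with scanner processed signals and with the deposited series table. The median of members was then -0.36 and -0.35, and 2 other imprinted genes were called lower in each. Leaving out 1 array gave 0 to 1 members called lower. The median level difference was 5.45 with the stained background repaired, 6.43 with scanner processed signals, 3.41 with the mean over probes, 4.91 with no filter, 4.92 with outlier flags kept and 5.55 with offset 10. Other imprinted genes called higher in level were 13 and lower 10 with scanner processed signals, and lower 3 with the mean over probes and 3 without Aquantile. For the fetal minus maternal response the median was 0.17 with median centring and 0.11 with scanner processed signals, which called 2 members higher and 1 lower. Over all genes, dropping Aquantile moved the median level difference to 0.17, with 2946 calls higher and 963 lower against 1834 and 1608. Median centring gave 68 higher and 22 lower fetal calls against 84 and 47, 45 and 84 maternal calls against 246 and 303, and 347 and 65 calls of the difference against 274 and 187. Scanner processed signals gave 224 and 169 fetal calls, 637 and 802 maternal calls, 3671 and 3443 level calls and 700 and 477 calls of the difference. The causes were not tested. No paired analysis was possible because the shared array number goes with the dye orientation and no result comes from a test. Signals near background in the mother limit the size of the folds.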
